A study of Mus musculus with 19 samples.

Results

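The GIMAP family of GTPases of immunity-associated proteins was followed through the spleens of immunized mice of the core-genotypes cross (FCG). Its members were taken by gene symbol, and all 8 of them, Gimap1, Gimap3, Gimap4, Gimap5, Gimap6, Gimap7, Gimap8 and Gimap9, were found among the 27179 genes of the expression table. Each member exceeded the filter on low values, an RPKM (reads scaled by transcript length and library size) of 0.5 or more in 4 or more mice, in 19 of 19 mice.

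The Y chromosome of FCG mice lacks the testis-determining gene Sry. A transgene on autosome 3 supplies it, so that gonads and sex chromosomes are inherited apart. The study asked how each of them bears on the antibody response to heat-killed Streptococcus pneumoniae (HKSP), and splenocyte RNA was sequenced from 19 mice taken 7 days after an intraperitoneal HKSP immunization, with 1 library per mouse. All groups came from B6 males with the Sry deletion dl1Rlb and the transgene Tg(Sry)2Ei, bred with C57BL/6J females. Their age is not stated in the sources. XXF mice (n = 5) had XX chromosomes, no Sry and ovaries. XYF mice (n = 4) had an X and a Y chromosome without Sry, no transgene, and ovaries. XXM mice (n = 5) had XX chromosomes with the Sry transgene and testes. XYM mice (n = 5) had an X and a Y chromosome without Sry, the transgene, and testes. Every mouse was immunized, so that no value of an unimmunized spleen enters below. Library sizes lay between 14595054 and 17644855 reads in XXF, 11263753 and 19040738 in XYF, 12119957 and 18099717 in XXM, and 15887402 and 19962022 in XYM mice. The methods name a stranded KAPA kit and the sample records a NEBNext Ultra kit, and neither states whether reads were counted by strand.

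GIMAP proteins are GTP-binding proteins that sit on intracellular membranes of lymphocytes, where their nucleotide-bound state governs how they assemble. In spleen they are known from T cells and, for several members, from B and NK cells, and the loss of Gimap5 or Gimap1 in rodents depletes mature lymphocytes. Gimap3 and Gimap5 are close relatives linked to T cell survival, Gimap6 binds the ATG8-type protein GABARAPL2 of the autophagy machinery, Gimap4 has been tied to lymphocyte death and cytokine release, Gimap7 stimulates GTP hydrolysis by pairing with relatives, and Gimap8 carries several GTPase domains in a row.

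In GRCm38, the assembly that mm10 denotes, the 8 genes form a cluster of 124 kb on chromosome 6, from 48647186 to 48770851, an autosomal position apart from both the sex chromosomes and the transgene. In order along the chromosome they are Gimap8, Gimap9, Gimap4, Gimap6, Gimap7, Gimap1, Gimap5 and Gimap3, with Gimap6 and Gimap3 on the minus strand. With 51-base reads, 183 of the distinct 51-base stretches in the transcripts of Gimap3 also occurred in Gimap5 (7.24% of those of Gimap3 and 4.36% of those of Gimap5), so that part of the reads of this pair could be assigned to either gene. No such stretch was shared between any other members, while Gimap1, Gimap3, Gimap5 and Gimap7 shared some on the same strand with the annotated gene Gm28053. Over all other genes on that strand the shared part was 5.87% in Gimap1, 7.84% in Gimap3, 6.67% in Gimap5 and 1.34% in Gimap7. The values of Gimap3 and Gimap5 include what they share with each other. Of the stretches of Gimap1, 33.7% lay opposite other annotated transcripts, those of its antisense neighbour Gimap1os among them, and without strand-aware counting the reads of these genes cannot be told apart.

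All 8 genes were abundant. The level of a gene, given as log2(RPKM + 1) and so per length, averaged over the 19 mice 8.76 for Gimap6, 8.47 for Gimap4, 8.02 for Gimap3, 7.28 for Gimap1, 6.79 for Gimap8, 6.66 for Gimap9, 6.53 for Gimap7 and 5.31 for Gimap5. Gimap6 was the most abundant member in every mouse, with between 5948 and 14699 reads, and made up between 25.3% and 31.2% of the summed RPKM of the family. Gimap5, the least abundant, had between 610 and 1693 reads. Gimap6 lay above Gimap4, Gimap4 above Gimap3, Gimap3 above Gimap1 and Gimap7 above Gimap5 within each of the 19 mice, with mean gaps between 0.29 and 1.22 on the log2 scale. The middle of the order was less settled. Gimap8 and Gimap9 differed by 0.13 ± 0.24 (mean gap ± SD, n = 19), less than the spread between mice, and Gimap9 was the higher of them in 5 mice. Gimap9 lay above Gimap7 by 0.13 ± 0.12 and in 17 of 19 mice, and Gimap1 above Gimap8 by 0.49 ± 0.28 and in 18 of 19, with XYM 12 as the exception. The order of the group means was the same in XXF, XXM and XYM mice, and in XYF mice Gimap9 and Gimap8 changed places.

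**Figure D1:**
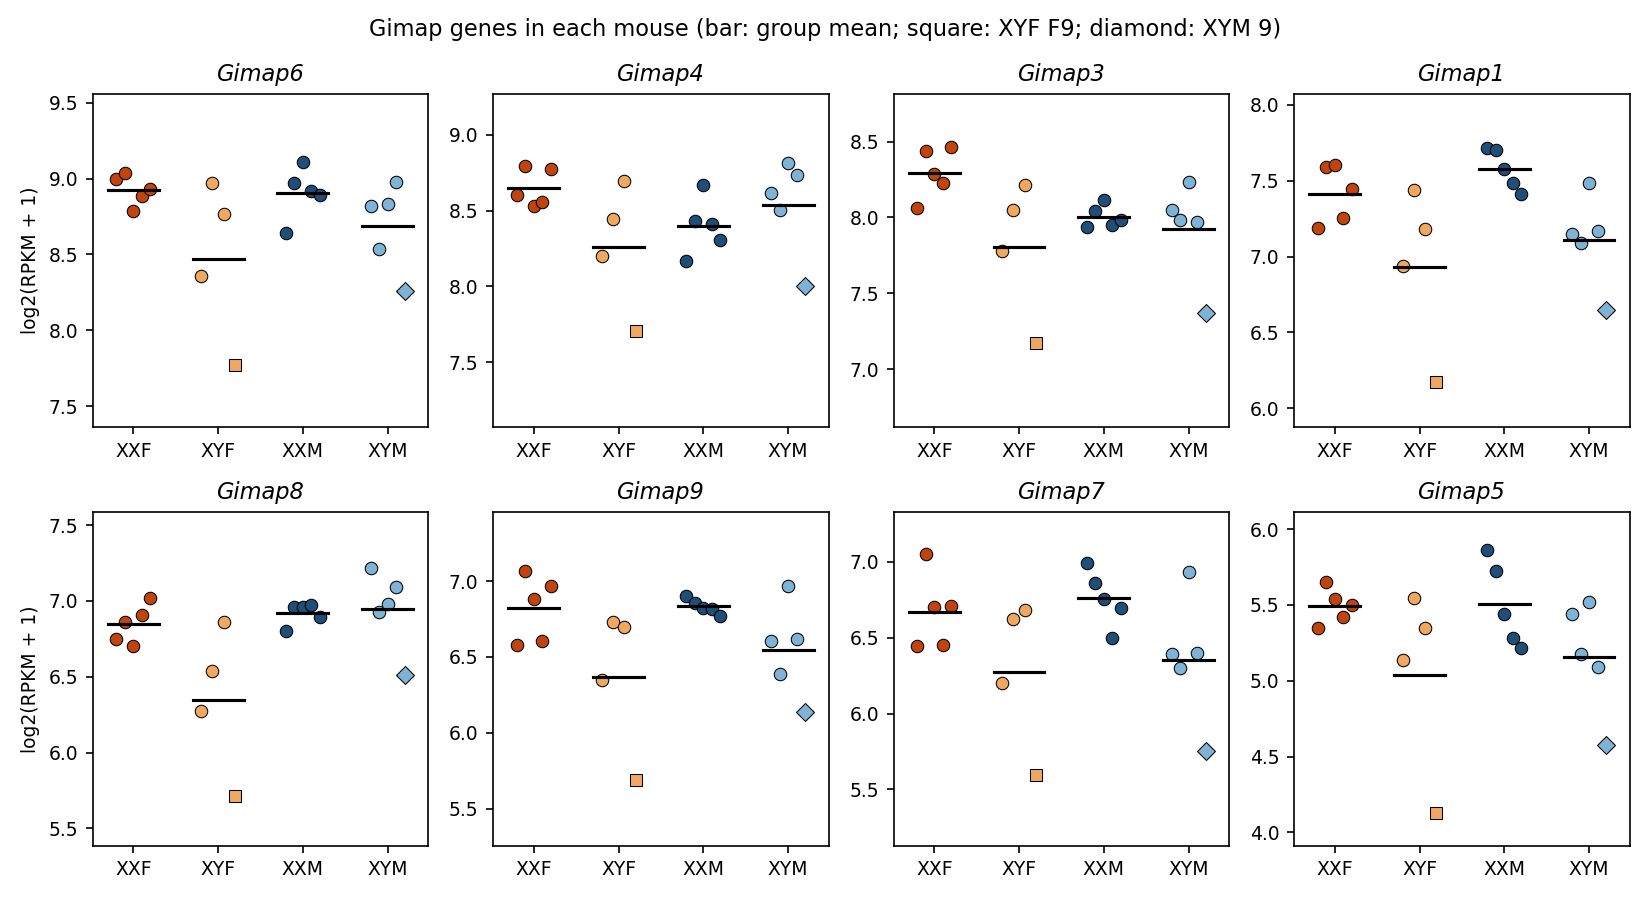
Level of each Gimap gene, as log2(RPKM + 1), in every mouse of the 4 groups; each point is a mouse, the bar is the group mean, and panels run from the most to the least abundant gene with axes of equal length. XYF F9 (square) is the lowest of the 19 mice and XYM 9 (diamond) the lowest of its group in all 8 panels.

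Promoters were read from the RefSeq table for GRCm38.p6, where 8 of 8 members matched with 9 windows, as Gimap8 has a pair of start sites. They are shown because the members varied together between mice. In the 250 bases before each start, TGTGGT, the core of RUNX sites, was found on either strand in 3 of the 9 windows, against 14% of all 32851 windows of the same length. The ETS letters CAGGAAG were found in 3 (10.8% of all windows) and CCGGAAG in 0 (6.91%). The 6 windows with a match are printed 5′ to 3′ on the strand of the gene, without the 30 bases next to the start, and capitals mark the match, which for RUNX reads ACCACA because it lies on the other strand. The first 3 hold the RUNX letters, beginning 145 bases before the start in Gimap4 (chr6:48684328-48684547, plus strand), 79 in Gimap7 (chr6:48718371-48718590, plus strand) and 95 in Gimap1 (chr6:48738797-48739016, plus strand), and the other 3 hold the ETS letters, beginning 181 bases before the start in Gimap9 (chr6:48675885-48676104, plus strand), 46 in Gimap5 (chr6:48745947-48746166, plus strand) and 86 in Gimap3 (chr6:48770882-48771101, minus strand).
Gimap4: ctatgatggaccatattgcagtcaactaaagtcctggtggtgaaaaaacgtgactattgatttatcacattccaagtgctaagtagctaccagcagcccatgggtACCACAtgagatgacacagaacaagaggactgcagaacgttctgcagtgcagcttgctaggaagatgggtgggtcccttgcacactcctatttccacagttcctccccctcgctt
Gimap7: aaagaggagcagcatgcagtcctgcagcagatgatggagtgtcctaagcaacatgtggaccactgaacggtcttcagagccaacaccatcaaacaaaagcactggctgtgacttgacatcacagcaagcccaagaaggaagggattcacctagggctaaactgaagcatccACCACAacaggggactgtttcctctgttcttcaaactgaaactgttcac
Gimap1: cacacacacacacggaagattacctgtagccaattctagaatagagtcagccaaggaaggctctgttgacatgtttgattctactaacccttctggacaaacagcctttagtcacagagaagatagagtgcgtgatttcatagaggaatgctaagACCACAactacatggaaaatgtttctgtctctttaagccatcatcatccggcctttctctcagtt
Gimap9: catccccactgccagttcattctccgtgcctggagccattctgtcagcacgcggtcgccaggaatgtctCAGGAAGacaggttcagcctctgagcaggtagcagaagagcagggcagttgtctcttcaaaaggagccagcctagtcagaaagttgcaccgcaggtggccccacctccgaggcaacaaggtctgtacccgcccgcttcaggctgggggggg
Gimap5: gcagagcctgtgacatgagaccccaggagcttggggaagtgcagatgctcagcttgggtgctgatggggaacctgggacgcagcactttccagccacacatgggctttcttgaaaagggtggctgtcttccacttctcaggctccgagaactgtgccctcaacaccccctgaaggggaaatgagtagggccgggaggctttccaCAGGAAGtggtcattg
Gimap3: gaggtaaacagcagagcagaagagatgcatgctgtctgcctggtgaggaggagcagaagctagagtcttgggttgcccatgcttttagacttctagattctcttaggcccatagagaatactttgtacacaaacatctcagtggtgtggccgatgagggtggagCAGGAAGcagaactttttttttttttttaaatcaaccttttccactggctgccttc
No window held letters of both kinds. E-boxes (CANNTG) occurred in 7 of the 9 windows and in 66.2% of all, a TATA box (TATAAA) in that of Gimap6 alone (12.4% of all), and the letters AGATAA for GATA factors (9.99% of all) in none. Those for TCF and LEF factors, CTTTGA (13.8% of all), were in none either. Searches covered both strands, and matches of different motifs were counted separately where they overlapped. Such matches describe the letters and are not evidence of binding.

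A pair of mice with low Gimap levels is described before the groups are compared. XYF F9 was the lowest of all 19 mice for each of the 8 genes, and XYM 9 was the lowest of the XYM mice for each of them. Expressed as the mean of the 8 genes after centring each on its average over all mice, XYF F9 lay at -0.98 and XYM 9 at -0.57. The next lowest, XYF F6, lay at -0.32, and the other 16 mice between -0.11 and 0.34. The same libraries carried far more neutrophil RNA than the rest. The summed RPKM of the 9 neutrophil markers, of which S100a9 was the most abundant and none was at 0 in any mouse, reached 56360 in XYF F9 and 58503 in XYM 9. In the other XYF mice it was 13112, 16639 and 8039, and in the other XYM mice between 3222 and 9439. It lay between 3839 and 5234 in XXF and between 4427 and 7534 in XXM mice. Other lists moved in XYF F9 and XYM 9 too. Their summed RPKM was the lowest of the 19 mice for NK cell markers (165 and 145) and the highest for myeloid markers (4057 and 3884). The myeloid sum was led by Lyz2, and the list as a whole did not stand out in both mice. Its centred mean was 0.77 in XYF F9 and 0.12 in XYM 9, with XYF F7 at 0.81 and XXF F4 at 0.32. The centred mean of the proliferation list was 1.49 in XYF F9 and 1.16 in XYM 9, with XYF F6 at 1.33. Over the 19 mice the mean of the Gimap genes and that of the neutrophil list had a Pearson correlation of -0.89 and a Spearman correlation of -0.59, and r was -0.64 over the 17 mice left without these libraries, the farthest from the median of the list. Within the 10 males r was -0.89 (Spearman -0.44), and 0.23 without XYM 9 and XYM 13, and within the 9 females r was -0.94 (Spearman -0.75), and -0.55 without XYF F9 and XYF F6. The points share library size and RNA composition, since RPKM is a share of all reads, and fewer lymphocytes and less Gimap RNA per lymphocyte cannot be told apart in bulk RNA. What the neutrophil content contributes to the differences below was not tested. For each comparison the median of the family is given with and without XYF F9 and XYM 9.

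**Figure D2:**
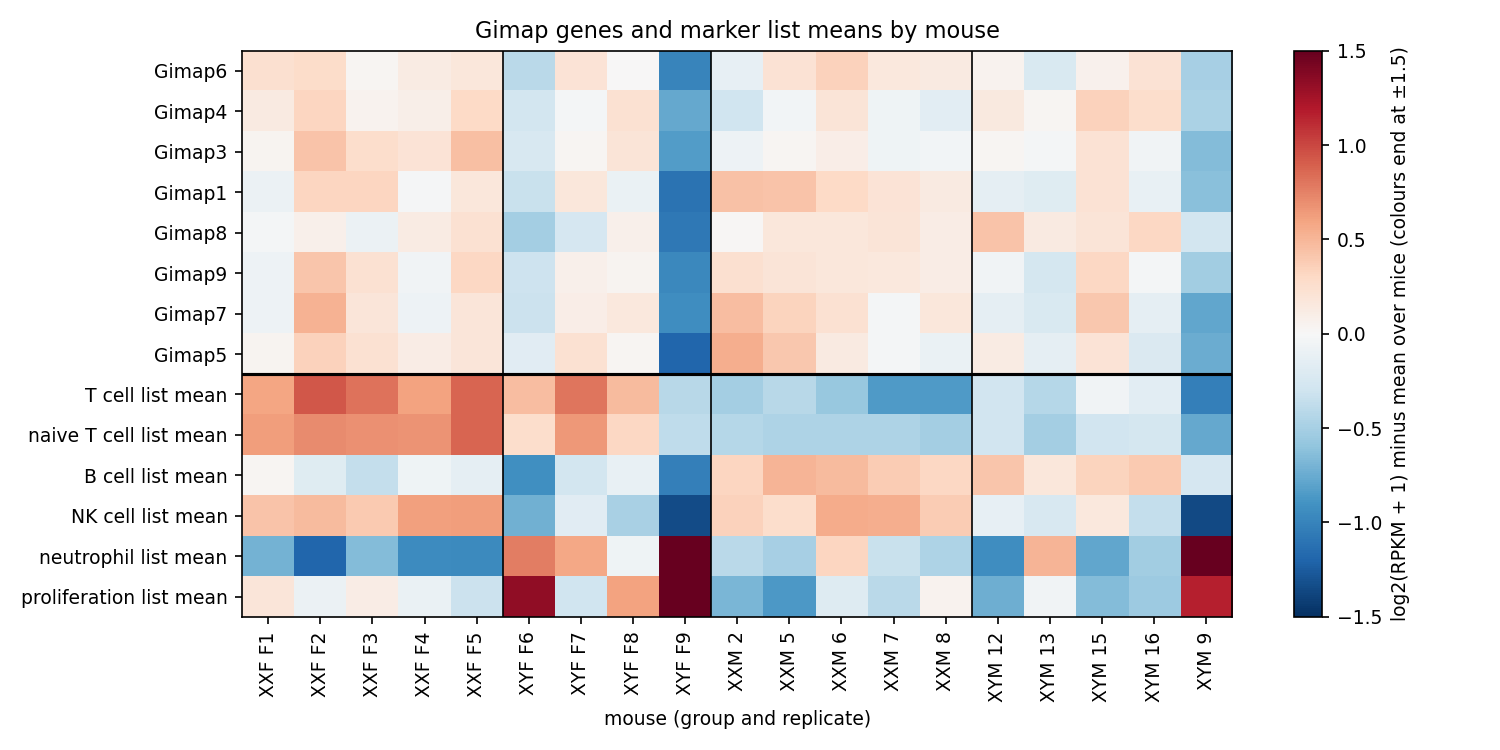
Each of the 8 Gimap genes and the mean of each of 6 marker lists, as log2(RPKM + 1) minus the average over the 19 mice, with mice in columns by group. XYF F9 and XYM 9 are blue (low) for every Gimap gene and dark red (high) for the neutrophil list, and the T cell lists divide ovary-bearing mice other than XYF F9 from testis-bearing mice where the Gimap genes do not.

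The members varied together from mouse to mouse. Over the 19 mice the 28 pairs of members had Pearson correlations between 0.63 (Gimap1 and Gimap4) and 0.96 (Gimap1 and Gimap9), with a median of 0.82. With each gene centred within its group the median was 0.86. Without XYF F9 and XYM 9 the median over the remaining 17 mice was 0.46, with a range from -0.02 (Gimap4 and Gimap5) to 0.91 (Gimap7 and Gimap9), so that much of the shared variation rested on those mice. The genes of a mouse share its library, depth and spleen composition, and no test was made.

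XX and XY mice with ovaries were compared first, the contrast that varies the sex chromosomes under the same gonads. Gimap8 had levels of 6.75, 6.86, 6.70, 6.91 and 7.02 in XXF and of 6.27, 6.54, 6.86 and 5.71 in XYF mice. Of the XXF mice 3 exceeded all XYF mice, while XYF F8 lay among the XXF values. The means were 6.85 (SD 0.13, n = 5) and 6.34 (SD 0.49, n = 4), a log2 difference of 0.50 (95% interval 0.14 to 0.87; limma, Benjamini-Hochberg adjusted p over 14186 genes = 0.16). Gimap3, linked to T cell survival, had levels of 8.06, 8.44, 8.28, 8.23 and 8.47 in XXF and of 7.78, 8.05, 8.21 and 7.17 in XYF mice. Again XYF F8 overlapped with the XXF mice and XYF F9 was far below. The log2 difference was 0.49 (limma, Benjamini-Hochberg adjusted p = 0.181). Without XYF F9 and XYM 9 it was 0.28 for Gimap3 (limma, adjusted p = 0.343) and 0.29 for Gimap8 (limma, adjusted p = 0.322).

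All 8 members were higher on average in XXF mice, under median ratio and quantile scaling too, with log2 differences between 0.39 (Gimap4) and 0.50 (Gimap8) and a median of 0.46, where the median over all genes tested was 0.06. None was called, a call being an adjusted p under 0.1 from limma together with a difference of more than 1.5-fold, while 1.38% of the 14186 genes were. At an unadjusted p under 0.05 there were 6 members (18.7% of all genes), and limma-voom on recovered reads called 0, with 6 at an unadjusted p under 0.05. None of the 8 had groups that did not overlap, against 5.65% of the genes tested. Without XYF F9 and XYM 9 the median was 0.23 and none was called. Leaving out XYF F7 alone gave 2 called members, Gimap1 (0.65) and Gimap6 (0.63), and leaving out XYF F8 alone gave 2 others, Gimap3 (0.63) and Gimap8 (0.67), while the share of all genes called went to 5.99% and 2.64%. Without XYF F9 alone that share went to 0.395%.

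The T cell markers showed a like difference in this contrast, with a median of 0.42 and 2 of 20 called higher, and NK cell markers a larger one, with a median of 1.33 and 8 of 10 called higher. Among all genes 1.38% were called here. B cell markers had a median of 0.43 with 1 of 12 called higher, Cr2, while all 9 neutrophil markers (median -2.08) and all 10 proliferation genes (median -0.91) had lower means in XXF mice, with 0 of either called by limma. The summed RPKM of the NK markers, led by Gzma, was between 591 and 752 in XXF and between 165 and 425 in XYF mice, and no marker was at 0. Without XYF F9 and XYM 9 the T cell median was 0.17 with 0 called by limma and the NK median 1.06 with 8 of 10 called, and 5 of the 9 neutrophil markers were called lower. The part of these cells in the Gimap differences was not tested.

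XX and XY mice with testes were compared in the same way. Gimap1, which mature T and B cells depend on, had levels of 7.71, 7.70, 7.57, 7.48 and 7.41 in XXM and of 7.15, 7.09, 7.49, 7.17 and 6.65 in XYM mice. Only XYM 15 reached into the range of the XXM mice. The means were 7.58 (SD 0.13) and 7.11 (SD 0.30) with n = 5 each, a log2 difference of 0.47 (95% interval 0.07 to 0.86, limma, Benjamini-Hochberg adjusted p = 0.135), and 0.35 (adjusted p = 0.0859) without XYF F9 and XYM 9. Gimap4 had levels of 8.17, 8.43, 8.67, 8.41 and 8.31 in XXM and of 8.61, 8.51, 8.81, 8.73 and 8.0 in XYM mice. Its groups overlapped, with XYM 9 below all XXM mice and the 4 other XYM mice above all XXM mice but XXM 6. The log2 difference was -0.14 (95% interval -0.50 to 0.23, limma, Benjamini-Hochberg adjusted p = 0.62), and -0.27 (adjusted p = 0.147) without XYF F9 and XYM 9.

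None of the 8 members was called between XXM and XYM mice, where 2.96% of the genes were (from 0.36% without XXM 2 to 8.55% without XYM 15 when single mice were left out), and none had groups that did not overlap (4.07% of the genes). At an unadjusted p under 0.05 there was 1 member, Gimap1 (27.1% of all genes), and limma-voom called 0, with 1 at an unadjusted p under 0.05. The median difference was 0.26, against 0.01 over all genes, and 0.15 without XYF F9 and XYM 9. With all mice 6 members lay above 0, of which Gimap3 turned to -0.032 under quantile scaling and to -0.054 without XYF F9 and XYM 9. Of the 20 T cell markers 4 were called lower in XXM mice, with a median of -0.18, and of the 10 NK cell markers 5 were called higher, with a median of 0.83. With XYF F9 and XYM 9 left out, 6 T cell markers were called lower (median -0.36) and 5 NK cell markers higher (median 0.55). Of 8 erythroid markers 2 were called higher, Hba-a1 and Hba-a2 (median 0.81), and 5 without that pair of mice (median 1.30), while the neutrophil median went from -0.58 to 0.22 with 0 of 9 called by limma either way.

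Averaged over both gonadal sexes, XX mice had the higher level of Gimap1 by 0.48 (95% interval 0.19 to 0.77, limma, Benjamini-Hochberg adjusted p = 0.0681). It was the only member with an adjusted p under 0.1, and its difference stayed below 1.5-fold, so that limma called 0 of 8 while it called 1.72% of the genes. With single mice left out that share went from 1.04% (without XYF F9) to 3.65% (without XYF F7). Without XYF F9 and XYM 9 the difference of Gimap1 was 0.29 (limma, adjusted p = 0.137), and over all alternatives its adjusted p lay between 0.0194 and 0.137. The 8 members had a median of 0.36 (0.03 over all genes), and of 0.17 without XYF F9 and XYM 9, when Gimap4 turned to -0.032. At an unadjusted p under 0.05 there were 6 members in limma (22.8% of all genes) and 6 in limma-voom, which called 0. Of 10 NK cell markers limma called 8 higher in XX mice (median 1.13), and 7 without XYF F9 and XYM 9 (median 0.91). Of 9 neutrophil markers 2 were called lower, Mpo and Elane (median -1.17, and -0.58 without the pair). The part of these cells in the Gimap differences was not tested.

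**Figure D3:**
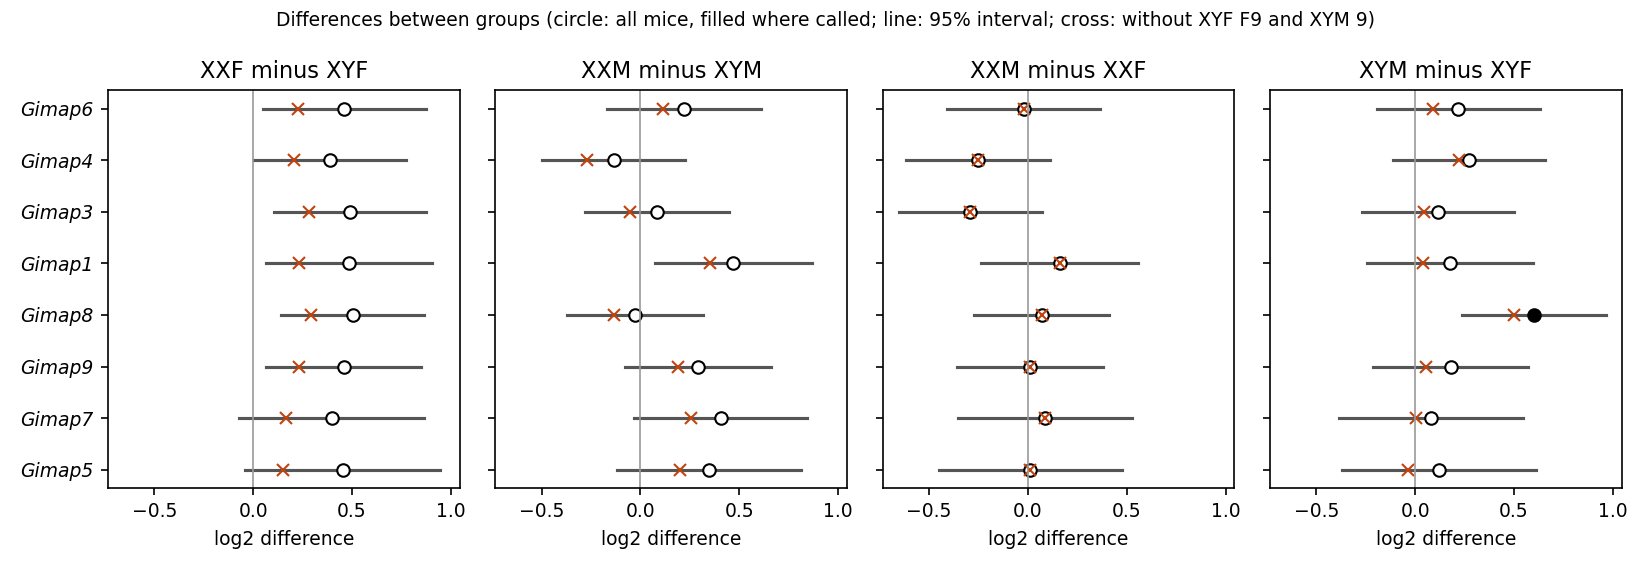
Log2 differences of the 8 Gimap genes, from the most abundant at the top to the least abundant, in 4 comparisons; circles are estimates from all mice with 95% intervals as lines, filled where called, and crosses are estimates without XYF F9 and XYM 9. The filled circle is Gimap8 between XYM and XYF mice, at 0.60 with all mice and 0.50 without the pair.

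Testes and ovaries were compared next, within each sex chromosome complement. In XY mice 1 of the 8 members was called, Gimap8, a smaller share than that of all genes. Its levels were 7.21, 6.92, 6.98, 7.09 and 6.51 in XYM and, as above, 6.27, 6.54, 6.86 and 5.71 in XYF mice. The 4 XYM mice other than XYM 9 exceeded every XYF mouse, and XYM 9 lay between XYF F6 and XYF F7. The log2 difference was 0.60 (SE 0.17, 95% interval 0.24 to 0.96, limma, Benjamini-Hochberg adjusted p = 0.0178), and Gimap8 was called higher in XYM mice, in a comparison that called 15.8% of all genes. It was also the 1 member with an unadjusted p under 0.05, where 42.4% of all genes had one. The call rested on the fold threshold, since the estimate was close to 1.5-fold. It was 0.50 (adjusted p = 0.00855) without XYF F9 and XYM 9, 0.39 without XYF F9, 0.58 without XYF F6, 0.53 without XYM 12 and 0.56 without XYM 16, and in none of these was Gimap8 called. It was also below 1.5-fold after median ratio scaling (0.54) and with array weights (0.48). Its adjusted p stayed between 0.00383 and 0.095 over all alternatives.

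The other 7 members differed by between 0.08 (Gimap7) and 0.27 (Gimap4) from XYF to XYM mice, and the median of the 8 was 0.18, against 0.02 over all genes and 0.05 without XYF F9 and XYM 9. None of the 8 had groups that did not overlap, against 13.8% of the genes. Limma-voom called 1 member and 20.6% of all genes. That Gimap8 was called in XY and not in XX mice does not show a difference between them, since the test of that difference, given below, did not reach a call.

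Between XX mice with testes and with ovaries the family had its smallest median difference, with members going in both directions. Gimap6, the partner of ATG8-type proteins, had levels of 8.64, 8.97, 9.11, 8.92 and 8.89 in XXM and of 9.0, 9.04, 8.78, 8.89 and 8.93 in XXF mice. The groups lay on top of each other. The log2 difference was -0.02 (95% interval -0.41 to 0.37, limma, Benjamini-Hochberg adjusted p = 0.968). Gimap5, whose loss depletes T cells in rodents, had levels of 5.86, 5.72, 5.44, 5.28 and 5.22 in XXM and of 5.35, 5.65, 5.54, 5.42 and 5.50 in XXF mice, with 2 XXM mice above and 2 below all XXF mice. Its log2 difference was 0.01 (95% interval -0.45 to 0.48). Gimap3 and Gimap4 had lower means in XXM mice, at -0.29 (adjusted p = 0.384) and -0.25 (limma, Benjamini-Hochberg adjusted p = 0.464), and 4 of 5 XXM mice lay below all XXF mice for each of them.

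None of the 8 was called between XXM and XXF mice by limma or limma-voom, and 0 had an unadjusted p under 0.05 by either, where 4.22% of the genes were called and 19.8% had an unadjusted p under 0.05. None had groups that did not overlap, against 9.71% of the genes. The median was 0.01. XYF F9 and XYM 9 are not in these groups, and the estimates were the same without them, while the adjusted p of Gimap3 went to 0.0939 and lay between 0.0555 and 0.544 over all alternatives.

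Over both complements the males had the higher level of Gimap8 by 0.34 (95% interval 0.09 to 0.58, limma, Benjamini-Hochberg adjusted p = 0.0424), below 1.5-fold and so not called, and by 0.28 (adjusted p = 0.0132) without XYF F9 and XYM 9. The median of the 8 members was 0.09 (0.02 over all genes, and 0.03 without XYF F9 and XYM 9), with Gimap3 turning from -0.09 to 0.053 under quantile and Gimap4 from 0.01 to -0.014 under median ratio scaling, and 0 of 8 were called by limma or limma-voom while limma called 7.32% of the genes. At an unadjusted p under 0.05 there was 1 member by each, and 41.7% of all genes by limma. The difference between the XX effects in females and in males was not called by limma in any member, where it was called in 0.0846% of the genes. At an unadjusted p under 0.05 there were 1 member by limma (21% of all genes) and 2 by limma-voom. It was largest for Gimap8 (0.53, 95% interval 0.03 to 1.03, limma, Benjamini-Hochberg adjusted p = 0.214) and Gimap4 (0.52, adjusted p = 0.24), with a family median of 0.20, and of 0.08 without XYF F9 and XYM 9. Leaving out XYF F8 alone gave a call for Gimap8 (0.70), and leaving out XYM 9 alone gave calls for Gimap4 (0.66) and Gimap8 (0.64), while the share of all genes called went to 5.28% and 11.9%. Without XYF F9 alone the difference fell to 0.32 for Gimap8 and 0.34 for Gimap4, and neither was called.

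**Figure D4:**
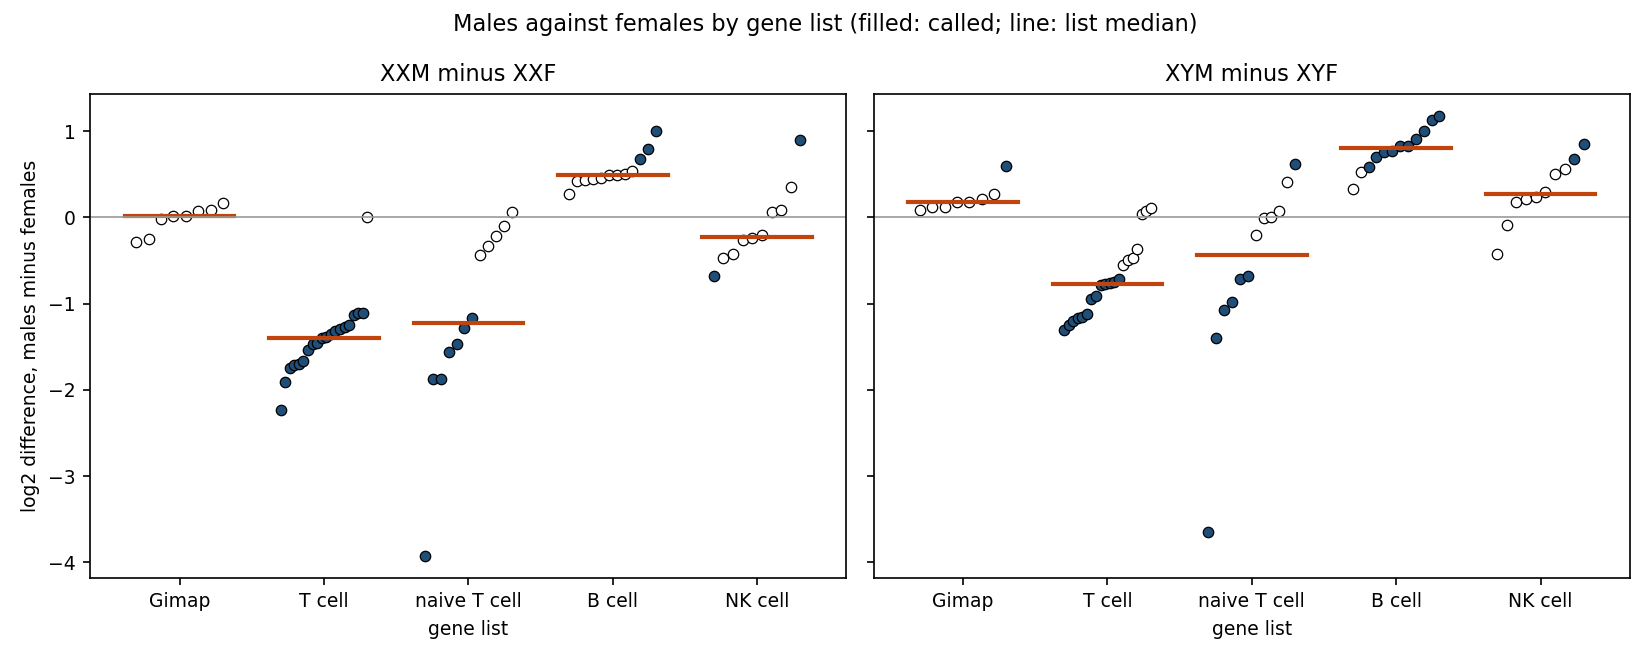
Log2 differences between males and females with XX (left) and XY (right) chromosomes for the Gimap genes and for the genes of 4 marker lists; each point is a gene, filled where called, and the line is the median of the list. T cell genes lie mostly near or below -1 in XX mice, while the 8 Gimap genes lie between -0.29 and 0.16.

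The T cell markers are set here beside the Gimap genes. Of 20 T cell markers 19 were called lower in XXM mice (median -1.395), 13 lower in XYM than in XYF mice (median -0.77) and 18 lower in males over both complements (median -1.17, and -1.2 with 18 called without XYF F9 and XYM 9). Of all genes 4.22%, 15.8% and 7.32% were called in these comparisons with all mice. Cd3e, a chain of the T cell receptor complex, fell by 1.53 from XXF to XXM mice (limma, Benjamini-Hochberg adjusted p = 0.000138). The exception among the 20 was Cd2, an adhesion receptor that mouse B cells also carry and the most abundant gene of the list, with a log2 difference of -0.00070 (limma, Benjamini-Hochberg adjusted p = 0.999).

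The summed RPKM of the 20 T cell markers was between 2286 and 3285 in XXF mice and between 966 and 1348 in XXM mice. It was 2345, 2963, 2261 and 1182 in XYF mice and 1257, 1144, 1613, 1406 and 776 in XYM mice, with no marker at 0. The summed RPKM of the 8 Gimap genes was between 1637 and 1935 in XXF mice and between 1550 and 1807 in XXM mice, 1224, 1625, 1647 and 805 in XYF mice and 1615, 1437, 1796, 1670 and 1060 in XYM mice. In each of the 9 females the T cell markers together outweighed the Gimap genes, and in none of the 10 males did they. The 12 naive T cell markers, led by Klf2, gave 7 called lower and 0 higher in XXM than in XXF mice (median -1.22), and 7 lower over both complements (median -0.84). In XYM against XYF mice 6 of them were called lower and 1 higher (median -0.44). The shares of all genes called were 4.22%, 7.32% and 15.8% in the same order.

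B cell markers went the other way, in comparisons that called 4.22% (XXM against XXF), 15.8% (XYM against XYF) and 7.32% (males against females) of all genes. Of 12, led by Cd79b, 3 were called higher in XXM than in XXF mice (median 0.49), 10 in XYM than in XYF mice (median 0.80) and 9 in males over both complements (median 0.67, and 7 called with a median of 0.63 without XYF F9 and XYM 9). Their summed RPKM was between 3147 and 3787 in XXF, 1774 and 3384 in XYF, 4556 and 5484 in XXM and 2936 and 4809 in XYM mice, with none at 0. The contributions of T cells and of B cells to the Gimap values were not tested.

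**Figure D5:**
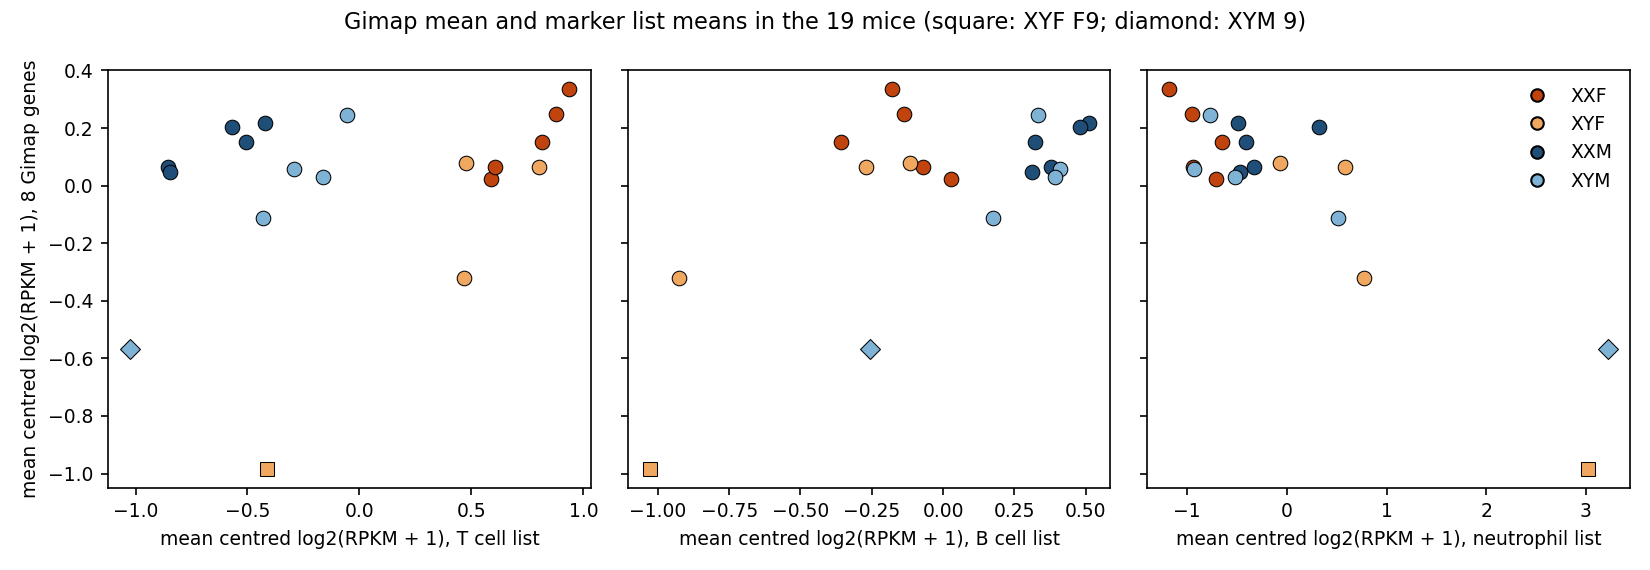
Mean of the 8 Gimap genes against the mean of the T cell (left), B cell (middle) and neutrophil (right) list in each mouse, all as log2(RPKM + 1) centred on the 19 mice. Ovary-bearing and testis-bearing mice form separate clouds against the T cell list, and XYF F9 (square) and XYM 9 (diamond) stand alone against the neutrophil list.

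Within each mouse the mean of the Gimap genes minus that of the T cell list, both centred, averaged -0.60 (SD 0.05) in the 5 XXF, -0.62 (SD 0.18) in the 4 XYF, 0.78 (SD 0.13) in the 5 XXM and 0.32 (SD 0.09) in the 5 XYM mice. It was between -0.79 and -0.40 in all females and between 0.19 and 0.92 in all males, and the values of XXM and XYM mice did not overlap either. On this scale XYF F9 (-0.57) lay between other XYF mice, and XYM 9 (0.45) was the highest of its group, next to XYM 12 (0.35). The T cell list itself averaged 0.57 (SD 0.41) in females and -0.52 (SD 0.31) in males, while the Gimap median differed by 0.09 between males and females. The separation of females from males on this scale thus mostly restates the lower T cell markers of males. This quantity was formed after the values were seen and is a description, and the same was not worked out for other lists. Within the 9 females the means of the Gimap genes and of the T cell list had r = 0.96 (Spearman 0.90), and r = 0.72 without the 2 farthest mice on the T cell list, XYF F9 and XXF F2. Within the 10 males r was 0.58 (Spearman 0.38), and r was -0.08 without XYM 9 and XYM 15, so that the relation in males rested on those mice. With the B cell list r was 0.84 (Spearman 0.25) in females and 0.94 (Spearman 0.62) in males, and -0.31 and 0.33 without the 2 farthest mice of each, which again included XYF F9 and XYM 9.

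The proportions among members were compared within each mouse. In each mouse Gimap4 exceeded Gimap1, and the gap was 0.46, 0.73, 1.09, 0.93 and 0.90 in XXM and 1.47, 1.41, 1.32, 1.57 and 1.35 in XYM mice. All XXM gaps lay below all XYM gaps, and XXF (0.92 to 1.42) and XYF mice (1.0 to 1.53) lay across both ranges. Of the 28 pairs of members, 5 had gaps that did not overlap between XXM and XYM mice (4.72% of all pairs of tested genes), 4 between XXM and XXF (10.8%), 3 between XYM and XYF (13.4%) and 0 between XXF and XYF (6.1%). All 5 in the first of these involved Gimap1 or Gimap4. The pair was picked after its values were seen, the pairs share members, and no test was made.

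Other pathways tied to the family were taken from lists. Of the interleukin 7 receptor and survival list, which feeds the same survival program in resting T cells, 15 of 16 genes passed the filter (Il7 did not). In XXM against XXF mice 1 was called lower, the receptor chain Il7r (-1.47, limma, Benjamini-Hochberg adjusted p = 0.000186), with a list median of -0.03. In XYM against XYF mice 1 was called higher, the apoptosis activator Bcl2l11 (0.60, adjusted p = 0.00424), and 1 lower, the survival factor Bcl2l1 (-1.38, limma, Benjamini-Hochberg adjusted p = 0.0264), with a median of 0.09. That comparison called 15.8% of all genes, among them all 8 tested erythroid markers as lower (median -2.35). The part of cell content in the Bcl2l1 and Bcl2l11 differences was not tested. Between XXF and XYF mice limma called 0, with a median of 0.23, and between XXM and XYM mice it called 1 lower, again Il7r (-0.74), with a median of 0.07. Of all genes 4.22% were called between XXM and XXF, 1.38% between XXF and XYF and 2.96% between XXM and XYM mice. Of the 13 genes of the ATG8 family and autophagy list, none was called by limma in any of the 7 comparisons with all mice. Their medians were 0.01 between XXF and XYF, 0.14 between XXM and XYM, -0.05 between XXM and XXF and -0.23 between XYM and XYF mice, the last going to -0.13 with 1 gene called lower when XYF F9 and XYM 9 were left out. Gabarapl2, which encodes the partner of Gimap6, differed by -0.57 between XYM and XYF mice (limma, Benjamini-Hochberg adjusted p = 0.0325), short of 1.5-fold. In the same comparison 5661 of the 14186 genes had an adjusted p under 0.1 by limma.

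T cell transcription factors, 14 genes with Ets1 the most abundant, divided. In XXM against XXF mice, where 4.22% of all genes were called, 3 were called lower, Lef1, Tcf7 and Bcl11b, with a median of -0.15. The same 3 were called lower in XYM than in XYF mice, with a list median of 0.18. Fli1 (0.87) and Ets1 (0.66) were called higher there, where 15.8% of all genes were called. Between XXF and XYF mice 1 was called higher, Lef1 (0.77), and between XXM and XYM mice 1 lower, Tcf7 (-0.78), with medians of 0.32 and -0.21. Of all genes 1.38% and 2.96% were called in these comparisons. Of 12 lymphocyte-expressed small GTPases and their regulators, 1 was called lower in XXM than in XXF mice, Arl4c (-1.47), while in XYM against XYF mice Arl4c was called lower (-0.68) and Dock2, which activates Rac, higher (0.77), 2 of 12 in the comparison that called 15.8% of all genes. In both XX against XY comparisons 0 of these 12 were called by limma, with medians of 0.24 in females and 0.01 in males.

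The remaining marker lists were myeloid, erythroid, plasma cell, proliferation and platelet genes. All 8 tested erythroid markers, led by Hbb-bs, were called lower in XYM than in XYF mice (median -2.35), where 15.8% of all genes were called. Of 10 proliferation genes, led by Pcna, 6 were called lower in the same comparison (median -0.97), of 8 megakaryocyte and platelet genes, led by Ppbp, 5 lower (1 without XYF F9 and XYM 9), of 11 myeloid genes, led by Lyz2, 3 lower, and of 8 plasma cell genes, led by Jchain, 1 higher and 1 lower. Whether the myeloid and plasma cell counts exceeded the share of all genes was not tested. Since RPKM values are shares of a library, the Gimap8 call stood beside all of these differences, and their part in it was not tested. None of the 9 neutrophil markers was called by limma between XYM and XYF mice with all mice (median -0.65), and 5 were called lower without XYF F9 and XYM 9 (median -0.71).

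The genes most like the family over the 19 mice were named by their Pearson correlation with the mean of the centred members, as a description. The first was Foxo1, the transcription factor that keeps naive T cells quiescent and drives Il7r, with r = 0.96 (Spearman 0.80), then Rhoh, a hematopoietic GTPase needed for T cell receptor signaling (r = 0.95, Spearman 0.85), Cd2 (r = 0.95, Spearman 0.88) and Shisa5 (r = 0.95, Spearman 0.72). Abhd6 (r = 0.94), Ttc5 (r = 0.93), Tbc1d10c (r = 0.92), Gimap1os (r = 0.92), H2-K2 (r = 0.92) and Fbxo32 (r = 0.91) followed. Without XYF F9 and XYM 9 these 10 had r between 0.72 and 0.90, Cd2 having the highest. Unless counting was by strand, the reads of Gimap1os cannot be told apart from those of Gimap1, which is part of the family mean. What this adds to the r of Gimap1os was not tested. At the other end stood Map3k20 (r = -0.94), Gas2l3 (r = -0.93), Ear1 (r = -0.93), Ctbp2 (r = -0.93) and the cohesin protector gene Sgo2a (r = -0.92). By list, the median r was 0.80 for NK cell, 0.65 for B cell, 0.37 for naive T cell and 0.31 for T cell markers, -0.77 for proliferation and -0.87 for neutrophil genes, against 0.16 over 14178 genes other than the members. These medians, without XYF F9 and XYM 9, were 0.57, 0.42, 0.099, 0.11, -0.59 and -0.60 in the same order.

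The genes around the cluster were looked at for a shared shift. Within 500 kb on either side the table listed 23 other genes that RefSeq places there, of which 12 were tested. Gimap1os is not placed there in the RefSeq table and so is not among them. Their median r with the mean of the members was 0.20, and the highest of these 12 was that of Lrrc61 (0.83), whose difference between XXF and XYF mice was 0.51 (limma, Benjamini-Hochberg adjusted p = 0.0399), short of 1.5-fold. Tmem176b and Tmem176a, the next genes beyond Gimap3 and expressed in myeloid cells, were called lower in XXF than in XYF mice (-0.81 and -0.86) and higher in XXM than in XXF mice (0.90 and 0.64). These comparisons called 1.38% and 4.22% of all genes. None of the 12 was called between XYM and XYF mice, where Gimap8 was. The medians of the 12 were 0.11 between XXF and XYF, 0.06 between XXM and XYM, -0.10 between XXM and XXF and 0.03 between XYM and XYF mice.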

How the data were processed

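RNA of splenocytes from 19 mice was measured by paired-end sequencing of 51 bases. The authors lysed red cells, used Subread for alignment to mm10 and featureCounts for counting, and deposited log2 RPKM values. Neither software versions, the annotation, the strand setting nor the handling of reads that match several places are stated. The deposited log2 values equal log2(RPKM + 1) plus 0.0001. Whole reads were recovered from their steps for 19124 of 19124 genes that had a read in 4 or more mice, the largest deviation being 0.0011 of a read. Library sizes lay between 11263753 and 19962022 reads. The lowest chi-square per gene between mice of a group was 20.7, where sampling noise gives about 1. No batch is given, and separate processing of the groups cannot be told apart from the groups.

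The 14186 genes that reached an RPKM of 0.5 in 4 or more mice entered limma 3.58.1 (R 4.3.3) as deposited log2 values, fitted with 4 group means, a trended empirical Bayes spread and Benjamini-Hochberg adjustment over all genes. A gene was called at an adjusted p under 0.1 and a log2 difference over 0.585 in size. On this scale the changes of weakly expressed genes are understated. The fit was tested on simulated data. The members and lists were chosen with earlier results of these data known. Named are the 8 members, genes of the lists, the 10 most and 5 least correlated genes and genes within 500 kb of the cluster. Identifiers of 25275 genes matched RefSeq. The alternatives comprised other pseudocounts (0.1 and 0.5), other filters (none, or an RPKM of 1), median ratio and quantile scaling, fitting the compared groups alone, dropping the trend, array weights, limma-voom on recovered reads, an adjusted p of 0.05, no fold threshold, and leaving out each mouse. Leaving out XYF F9 and XYM 9 together was chosen after seeing the data. Other steps ran in Python 3.11.15 (numpy 2.4.6; scipy 1.17.1; pandas 2.3.3), and figures were drawn with matplotlib 3.10.9.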

Additional observations from a re-analysis of the deposited data

Results flagged for a closer look

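A mouse counted as standing apart when its gap to the nearest other mouse took up more than 0.71 of the range of a group of 5 mice, or more than 0.83 in a group of 4. No Gimap gene had such a mouse in any of 32 groups tested, though XYF F9 and XYM 9 were the lowest of their groups. The mean of a list did in 4 of 56 groups, where chance gives about 1 in 20. These means are log2 values centred on all mice. The neutrophil list was highest among XXM mice in XXM 6 (0.3266, next -0.3297). The interleukin 7 receptor and survival list was highest among XXF mice in XXF F5 (0.1969, next 0.1108). The ATG8 family and autophagy list was lowest among XXF mice in XXF F1 (-0.0117, next 0.0675) and lowest among XXM mice in XXM 6 (-0.1216, next 0.0116). The cause was not tested.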

How the results depend on the processing

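Of the 56 pairs of a Gimap gene and a comparison, 34 kept their direction under each of the 31 or 32 alternatives run, among them all 8 genes between XXF and XYF mice. With quantile scaling, the direction turned for Gimap3 (-0.032) between XXM and XYM, Gimap3 (0.053) between males and females, Gimap7 (0.11) for the difference of the XX effects. With median ratio scaling, the direction turned for Gimap4 (-0.014) between males and females, Gimap1 (-0.049) for the difference of the XX effects. With array weights, the direction turned for Gimap5 (-0.033), Gimap6 (0.021) and Gimap9 (-0.015) between XXM and XXF, Gimap7 (-0.068) between XYM and XYF, Gimap4 (-0.040), Gimap5 (-0.014), Gimap7 (-0.0007) and Gimap9 (-0.0064) between males and females, Gimap1 (-0.098) for the difference of the XX effects. Without XYF F9 and XYM 9, the direction turned for Gimap3 (-0.054) between XXM and XYM, Gimap4 (-0.032) between XX and XY, Gimap5 (-0.037) between XYM and XYF, Gimap4 (-0.016) and Gimap5 (-0.011) between males and females, Gimap1 (-0.12) and Gimap5 (-0.050) for the difference of the XX effects. With single mice left out, differences that turned ranged as follows. Between XXM and XYM mice these were Gimap3 from -0.054 to 0.16 and Gimap8 from -0.14 to 0.040. Between XXM and XXF mice these were Gimap5 from -0.076 to 0.085, Gimap6 from -0.072 to 0.045 and Gimap9 from -0.049 to 0.073. Between XYM and XYF mice these were Gimap1 from -0.077 to 0.35, Gimap3 from -0.092 to 0.26, Gimap5 from -0.18 to 0.29, Gimap6 from -0.014 to 0.39, Gimap7 from -0.15 to 0.23 and Gimap9 from -0.047 to 0.30. Between males and females these were Gimap4 from -0.083 to 0.083, Gimap5 from -0.085 to 0.15, Gimap6 from -0.018 to 0.18, Gimap7 from -0.030 to 0.16 and Gimap9 from -0.018 to 0.16. For the difference of the XX effects these were Gimap1 from -0.24 to 0.18, Gimap5 from -0.20 to 0.28, Gimap7 from -0.24 to 0.14 and Gimap9 from -0.058 to 0.29. Most of the lowest values came without XYF F9. The number of called Gimap genes was 0 to 2 between XXF and XYF mice when single mice were left out (2 without XYF F7 and 2 without XYF F8, where 5.99% and 2.64% of all genes were called), 0 to 1 between XYM and XYF mice (0 without XYF F6, XYF F9, XYM 12 or XYM 16, where 9.83%, 18%, 11.5% and 12% of all genes were called), and 0 to 2 for the difference of the XX effects (1 without XYF F8, Gimap8 at 0.70, and 2 without XYM 9, Gimap4 at 0.66 and Gimap8 at 0.64, where 5.28% and 11.9% of all genes were called). Between XYM and XYF mice it was 0, not 1, with median ratio scaling, with array weights and without XYF F9 and XYM 9, and Gimap8 kept its direction under all 32 alternatives, called in 25. Without a fold threshold 1 gene was called between XX and XY mice, Gimap1, beside 983 of the 14186 genes, and 1 between males and females, Gimap8, beside 5468, since their differences were below 1.5-fold. Elsewhere the cause was not tested.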
